A study of Homo sapiens with 6 samples.

Results

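The 6 genes described here are markers of lineages other than the fibroblast: ALB (albumin), AFP (alpha-fetoprotein) and APOB (apolipoprotein B) of the liver, HBB (beta globin) of red cells, CFTR of secretory epithelia and MYF5 of muscle precursors. They were chosen by name, with no measured value in the rule, and each was placed by its gene body in GRCh37/hg19, rounded to 1 kb, on 4 lists of broad domains. All 6 genes were placed, and they make up 5 loci because ALB and AFP are neighbours. The lists held 613 and 593 domains for lamin B1 and 437 and 475 domains for LC3. They came from chromatin immunoprecipitation followed by sequencing (ChIP-seq) in IMR90, a human lung fibroblast line grown without treatment at 3% oxygen and fixed with 1% formaldehyde. All groups shared this line and these conditions: 2 samples were precipitated with an antibody against lamin B1, 2 with an antibody against LC3, and 2 were input chromatin, for which no list was analysed. The comparison asks which of these genes lie where lamin B1 was found, where LC3 was found, or both. Whether the replicates are separate cultures is not stated in the labels, so their spread may be technical.

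Lamin B1 is a filament protein of the nuclear lamina, the mesh under the inner nuclear membrane. The long, mostly inactive stretches of chromatin that touch it are called lamina-associated domains, and tissue-specific genes of other cell types are often found in them. LC3 is best known as the lipid-linked protein of autophagosome membranes. The lists hold positions and no expression values, so neither the fibroblast identity of the cells nor the silence of these genes was measured. They also give no heights or read counts, so the depth behind a domain is unknown, and the absence of a gene from a list does not show that the protein was absent there.

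LC3 domains held all 6 genes in both LC3 replicates, against 46.3% of the 1 kb bins of the genome. Lamin B1 domains held 3 of the 6 genes in both lamin B1 replicates, against 46.0% of bins. APOB, HBB and CFTR lay wholly inside a domain in all 4 lists, as did 36.6% of bins. ALB and AFP lay wholly inside a domain of both LC3 lists and of lamin B1 replicate 2, and had no base in a domain of lamin B1 replicate 1. MYF5 lay wholly inside a domain of both LC3 lists and had no base in a domain of either lamin B1 list. No gene was cut by an edge, so each had 0% or 100% of its body in a list. None was in lamin B1 domains without LC3.

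These counts are few, and much of the genome is in the lists. Shares were taken over the 1 kb bins between the first and last domain of any list on each chromosome. Domains covered 49.3% and 48.7% of these bins for lamin B1 replicates 1 and 2, and 49.4% and 52.3% for LC3 replicates 1 and 2. LC3 replicate 2 had domains on 22 chromosomes and the other lists on 23. The chromosome without one counted as not covered in LC3 replicate 2. The pattern of MYF5, with LC3 in each replicate and lamin B1 in none, was shared by 6.32% of bins, and that of ALB and AFP, with both LC3 lists and 1 lamin B1 list, by 3.38%. The reverse of the MYF5 pattern took up 4.45% of bins. The bins cover genes and intergenic sequence alike, and a share over genes alone was not computed. Nor were the shares in both lists of an antibody computed for the chromosomes of these genes alone. Because the 6 genes were proposed with earlier results of these data known, the counts describe these genes and were not tested.

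**Figure D1:**
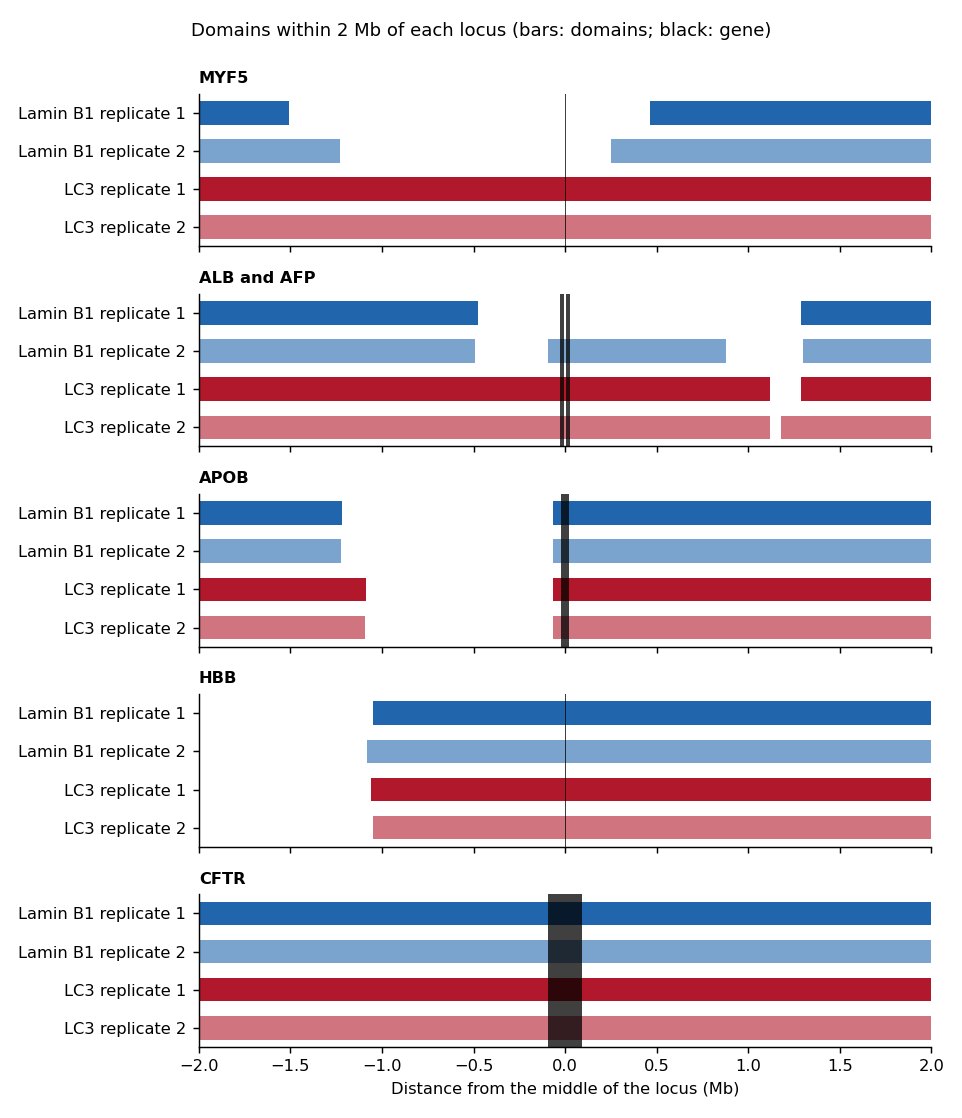
Domains of each list (bars) within 2 Mb of the middle of each locus, as distance in Mb, with the gene bodies in black (a minimum width is drawn for MYF5 and HBB). MYF5 sits in a gap of both lamin B1 lists, ALB and AFP sit in a gap of lamin B1 replicate 1 alone, and APOB, HBB and CFTR are covered in all 4 lists.

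MYF5 encodes a transcription factor that commits cells to the skeletal muscle lineage. It lies on chromosome 12 from 81111001 to 81113000, next to MYF6, a gene of the same family, in the RefSeq order. In lamin B1 replicate 1 it lay in a gap of 1.97 Mb between domains, 1506 kb after the end of one domain and 463 kb before the start of the next. In lamin B1 replicate 2 the gap was 1.48 Mb, and the distances were 1231 and 247 kb. Both lamin B1 lists left the gene outside, nearer to the domain that follows. That following domain was 6.76 Mb long in replicate 1 and 11.0 Mb in replicate 2, and the one before the gap measured 2.03 and 2.34 Mb.

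The LC3 lists ran across this gap without a break. MYF5 lay in an LC3 domain of 14.9 Mb in replicate 1, 3676 kb from its nearest edge. In replicate 2 the domain was 22.3 Mb long and the nearest edge was 11016 kb away. The right edges of these domains were 21 kb apart, at 92370000 and 92391000, while the left edges were 7340 kb apart, at 77435001 and 70095001. Nearly all of the difference in length between the LC3 replicates sat on the left side. The LC3 domain of replicate 1 met 3 domains of lamin B1 replicate 1 and 2 of lamin B1 replicate 2, which covered 73.1% and 89.4% of it. For the LC3 domain of replicate 2 the counts were 5 and 4 lamin B1 domains, and the coverage was 68.1% and 78.8%. MYF5 thus lay in a part without lamin B1 of LC3 domains that were mostly covered by lamin B1. Within 2 Mb on either side of the gene, LC3 covered 100% in both replicates, and lamin B1 covered 50.7% in replicate 1 and 63.0% in replicate 2. Over this window 50.7% was in all 4 lists and 36.98% was in both LC3 lists alone.

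ALB and AFP are members of one gene family, and each encodes a major plasma protein, ALB in the adult liver and AFP in the fetal liver and yolk sac. ALB lies on chromosome 4 from 74270001 to 74287000 and AFP on chromosome 4 from 74302001 to 74322000, followed in the RefSeq order by AFM, another gene of the family. The lamin B1 replicates placed this locus differently. In replicate 1 the pair lay in a gap of 1.76 Mb, from the end of a domain at 73821000 to the start of the next at 75585001. ALB was 449 kb and AFP 481 kb past the first of these edges. In replicate 2 a domain of 0.972 Mb, from 74200001 to 75172000, filled part of the same gap and held both genes. Its left edge was 70 kb from ALB and 102 kb from AFP, against a bin size of 4 kb in that list. On either side the lamin B1 lists were close to each other: the preceding domain measured 1.62 and 1.64 Mb and the following one 0.777 and 0.820 Mb in replicates 1 and 2. The lamin B1 replicates differed at this locus by the presence or absence of 1 domain.

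The LC3 replicates placed ALB and AFP alike. Both genes lay in a single LC3 domain, from 72045001 to 75415000 (3.37 Mb) in replicate 1 and from 72048001 to 75414000 (3.37 Mb) in replicate 2. The edges of the LC3 replicates were 3 kb and 1 kb apart, with bin sizes of 5 and 3 kb. ALB lay 1128 and 1127 kb from the nearest LC3 edge and AFP 1093 and 1092 kb. Lamin B1 replicate 1 had 1 domain in this stretch, which covered 48.0% of the LC3 domain in either LC3 replicate. Lamin B1 replicate 2 had 2 domains there, which covered 77.5% of the LC3 domain of replicate 1 and 77.6% of that of replicate 2. The LC3 domain thus ran over a gap between 2 domains of lamin B1 replicate 2, whereas relative to lamin B1 replicate 1 it extended past the end of 1 domain and stopped short of the next. After the LC3 domain came a gap of 170 kb in replicate 1 and 63 kb in replicate 2, and then another LC3 domain. Within 2 Mb of ALB, lamin B1 covered 56.1% and 79.7% in replicates 1 and 2, and LC3 covered 95.8% and 98.4%. The values for AFP were equal to these after rounding.

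The promoters of ALB, AFP and MYF5 are shown because these are the genes at which the lists differed. RefSeq promoter sequences, 250 bases before to 50 bases after the start of the gene, were matched by symbol for 4 of the 6 genes (ALB, AFP, CFTR and MYF5, and not APOB and HBB). They are in build GRCh38.p14, whose positions differ from those of the lists, and all are on the plus strand: chr4:73404037-73404336 for ALB, chr4:73435971-73436270 for AFP and chr12:80716662-80716961 for MYF5. Each is printed 5′ to 3′, and capitals mark TATAAA, a core form of the TATA box, and GTTAAT, part of the site of the liver factor HNF1, both searched on both strands.
ALB: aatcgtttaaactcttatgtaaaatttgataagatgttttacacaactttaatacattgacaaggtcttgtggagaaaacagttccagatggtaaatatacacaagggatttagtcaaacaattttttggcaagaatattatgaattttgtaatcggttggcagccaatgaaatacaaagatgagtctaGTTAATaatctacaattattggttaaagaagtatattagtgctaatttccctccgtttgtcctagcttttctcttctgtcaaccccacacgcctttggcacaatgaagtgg
AFP: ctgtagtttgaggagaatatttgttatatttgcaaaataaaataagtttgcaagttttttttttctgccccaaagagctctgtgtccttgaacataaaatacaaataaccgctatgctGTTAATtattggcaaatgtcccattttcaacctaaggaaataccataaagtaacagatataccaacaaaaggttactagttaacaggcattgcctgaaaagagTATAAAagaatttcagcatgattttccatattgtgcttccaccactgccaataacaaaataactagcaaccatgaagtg
MYF5: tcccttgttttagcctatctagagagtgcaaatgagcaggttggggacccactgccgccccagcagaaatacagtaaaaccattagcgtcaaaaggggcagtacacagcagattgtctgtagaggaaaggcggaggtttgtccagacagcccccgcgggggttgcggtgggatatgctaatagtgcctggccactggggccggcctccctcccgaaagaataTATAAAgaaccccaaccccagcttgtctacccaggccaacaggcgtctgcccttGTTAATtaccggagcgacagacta
TATAAA was found 1 time in AFP and 1 time in MYF5, starting 29 and 28 bases before the start of the gene, and not in these letters in ALB or CFTR. It was present in 11.5% of the 35116 RefSeq promoters of this length. GTTAAT was found 1 time each in ALB, AFP and MYF5, 61 and 132 bases before the start in the liver genes and inside the transcribed part in MYF5, and in 6.88% of these promoters. No matches overlapped. A match is a description of letters and not evidence of binding. Both motifs were chosen after these sequences were seen, so the shares over all promoters are no test of the matches. G and C made up 33.3% of the ALB promoter and 33.0% of the AFP promoter, against 54.7% in MYF5, 60.7% in CFTR and a median of 58.7% over the promoters. The ALB promoter held 4 CG pairs, AFP 1, MYF5 11 and CFTR 12, against a median of 14. The 2 liver promoters were therefore AT-rich and the muscle promoter was not. A relation between promoter composition and the lists was not tested.

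APOB encodes the main protein of low-density lipoprotein and chylomicrons. Its gene body, on chromosome 2 from 21224001 to 21267000, lay just inside the left edge of a domain in all 4 lists. That edge was at 21180001 in every list, 44 kb before the gene, although the bin sizes were 3, 4, 5 and 3 kb. With these bin sizes the 4 lists can coincide only at multiples of 60 kb, where 60 and 93 edges of lamin B1 replicates 1 and 2 and 76 and 47 edges of LC3 replicates 1 and 2 lay. An edge in all 4 lists was found at 3 positions in the genome. Gaps of the genome assembly, at which domains can end, were not used here, and their part in this edge was not tested. Among all bins inside domains, 3.94% and 3.86% were as near or nearer to an edge in lamin B1 replicates 1 and 2, and 2.80% and 2.88% in LC3 replicates 1 and 2. APOB was the gene closest to an edge of the 3 covered in all lists, and close to an edge relative to most covered sequence.

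The domain that held APOB was 2.742 and 2.596 Mb long in lamin B1 replicates 1 and 2, and 2.755 and 2.595 Mb in LC3 replicates 1 and 2. The lamin B1 mean was 2.669 ± 0.10 Mb and the LC3 mean 2.675 ± 0.11 Mb (SD, 2 lists of each antibody), and the groups overlapped (exact two-sided permutation p = 1). Its right edge fell by replicate number and not by antibody. It was at 23922000 and 23935000 in lamin B1 and LC3 replicate 1, 13 kb apart, and at 23776000 and 23775000 in replicate 2, 1 kb apart. Between replicates of one antibody it differed by 146 kb for lamin B1 and 160 kb for LC3. Whether same-numbered samples share a culture or an input is not given in the labels. The gap before the domain was 1152, 1160, 1020 and 1026 kb in the 4 lists, in the order just used for length, and LC3 covered 74.8% and 74.6% of the 2 Mb flanks against 71.5% and 71.3% for lamin B1.

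HBB encodes the beta chain of adult hemoglobin. It lies on chromosome 11 from 5247001 to 5248000, in the beta globin cluster, with HBD on one side and the olfactory receptor gene OR51V1 on the other in the RefSeq order. The gene was 1047, 1083, 1062 and 1047 kb from the nearest edge in lamin B1 replicates 1 and 2 and LC3 replicates 1 and 2. In each list that was the left edge, whose 4 positions, from 4164001 to 4200001, spanned 36 kb. The antibodies did not separate there: the lamin B1 mean was 1065 ± 25 kb and the LC3 mean 1054.5 ± 11 kb (SD, n = 2 per antibody, exact permutation p = 1). They did separate at the far edge. Lamin B1 domains ended at 7887000 and 7760000 and LC3 domains at 8515000 and 8541000, so that the LC3 domain ran 628 kb further in replicate 1 and 781 kb further in replicate 2. The replicates of one antibody differed there by 127 kb for lamin B1 and 26 kb for LC3. The lamin B1 domain was 3.69 and 3.60 Mb long in replicates 1 and 2, and the LC3 domain 4.33 and 4.34 Mb. Lamin B1 covered 85.2% and 82.6% of the LC3 domain of replicate 1, while each LC3 list covered 100% of the lamin B1 domain of replicate 1. The extra LC3 sequence lay over 2 Mb from the gene, and within 2 Mb lamin B1 covered 76.2% and 77.1% and LC3 76.6% and 76.2%.

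CFTR encodes the chloride channel of airway, gut and pancreatic epithelia. Its gene body, on chromosome 7 from 117120001 to 117309000, is 189 kb long and lay near the middle of one of the longest domains in every list. The gene was 9357 and 8916 kb from the nearest edge in lamin B1 replicates 1 and 2, and 9380 and 9381 kb in LC3 replicates 1 and 2. Its midpoint was 48.9%, 47.7%, 47.3% and 47.4% of the way along the domain. Of all bins inside lamin B1 domains, 99.8% in replicate 1 and 99.3% in replicate 2 were as near or nearer to an edge. The LC3 values were 95.6% and 92.6%. The lamin B1 domain measured 19.3 and 18.9 Mb, the third longest of each list. The LC3 domain measured 20.025 and 19.989 Mb, in place 7 of 437 by length and place 11 of 475. Its mean length was 19.1 ± 0.30 Mb in the lamin B1 lists and 20.007 ± 0.025 Mb in the LC3 lists (SD, n = 2 per antibody).

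The CFTR domain began within 24 kb of one position in lamin B1 replicate 1 and both LC3 lists, and 441 kb later in lamin B1 replicate 2 than in replicate 1. At its right edge the antibodies separated. Lamin B1 ended at 127074000 and 127092000, 18 kb apart, and LC3 at 127765000 and 127728000, 37 kb apart. The LC3 domain ran 691 kb further in replicate 1 and 636 kb further in replicate 2. CFTR itself was far from this difference, and the 2 Mb on either side of it were covered 100% in all 4 lists.

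**Figure D2:**
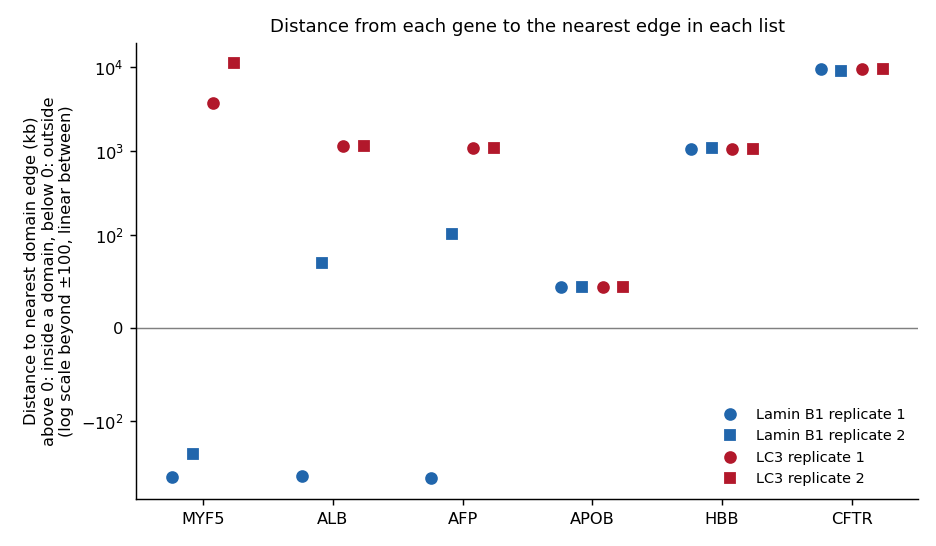
Distance in kb from each gene to the nearest domain edge in each list, above 0 inside a domain and below 0 outside (axis linear within 100 kb of 0 and logarithmic beyond). Points of both antibodies coincide for APOB at 44 kb and lie together for HBB and CFTR, while for MYF5, ALB and AFP the LC3 points are above 1000 kb and the lamin B1 points at or under 102 kb.

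The genes fell into an order by how deep they lay in domains, and the order differed between antibodies. In the LC3 lists APOB lay nearest an edge at 44 kb, followed by HBB, AFP and ALB, which lay between 1047 and 1128 kb in both lists. MYF5 was next at 3676 kb in replicate 1, with CFTR deepest at 9380 kb. In replicate 2 MYF5 was deepest at 11016 kb and CFTR second at 9381 kb, so the order of these 2 genes differed between replicates. In the lamin B1 lists CFTR was deepest, HBB second and APOB, ALB and AFP within 102 kb of an edge where they were inside at all, and MYF5 was outside by 463 and 247 kb.

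**Figure D3:**
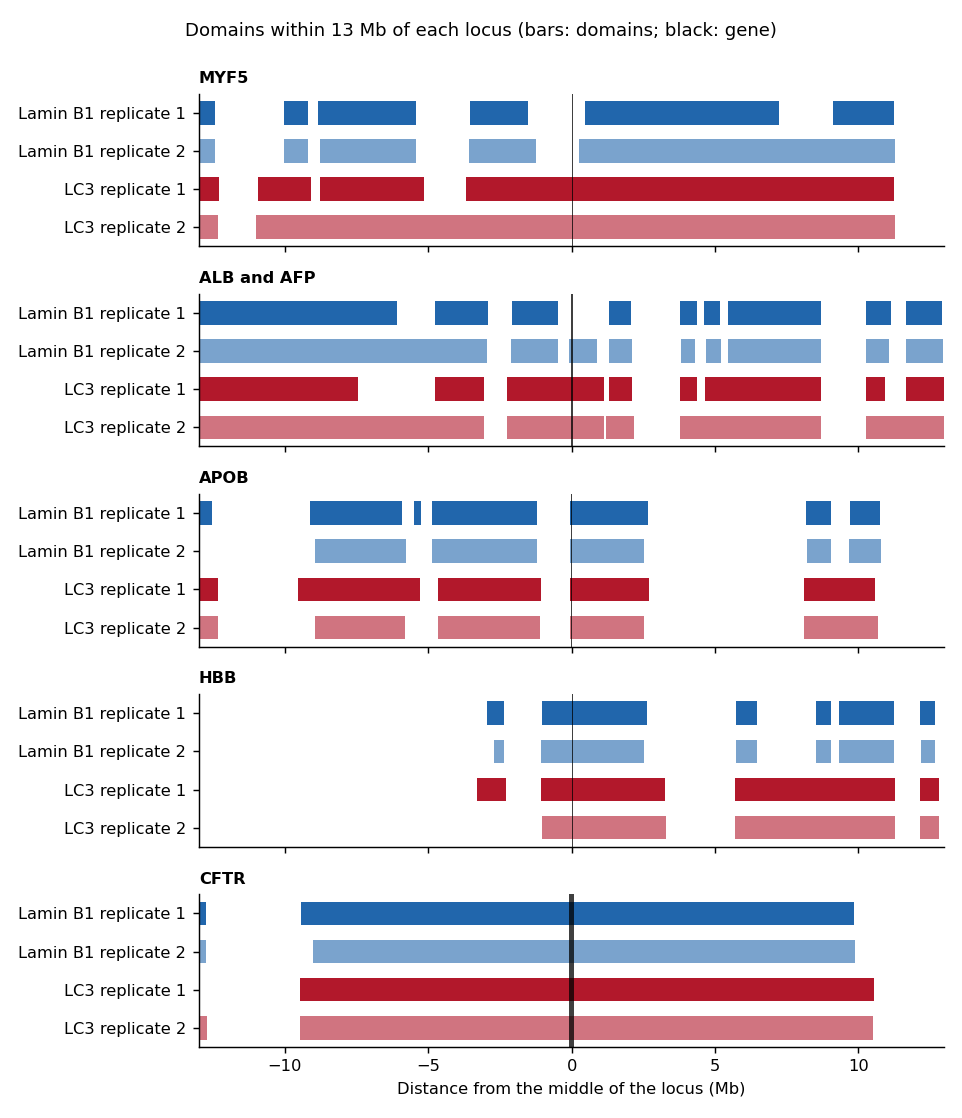
Domains of each list (bars) within 13 Mb of the middle of each locus, as distance in Mb, with the gene bodies in black. The LC3 domains at MYF5 reach from 3676 kb (replicate 1) or 11016 kb (replicate 2) before the gene to more than 11 Mb after it, across several lamin B1 domains, and at HBB and CFTR the LC3 bars end 628 to 781 kb beyond the lamin B1 bars on the right.

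Compared gene by gene, both LC3 lists lay above both lamin B1 lists for the length of the domain that held the gene (0 where none did) in 5 of 6 genes, APOB being the exception. This held for 30.9% of all bins. Such a call needs both LC3 lengths above 0, so it was possible only in the 1315722 bins covered by LC3 in both replicates. All 6 genes lay in such sequence, which is the nearer background. There the call held for most bins, 877612 of 1315722, so 30.9% is too low a share to set against 5 of 6 genes. For the distance to the nearest edge, both LC3 lists were higher in 4 of 6 genes, against 39.1% of bins, with APOB and HBB the exceptions. At CFTR the distances were 9380 and 9381 kb for LC3 and 9357 and 8916 kb for lamin B1. The call there rests on a narrow gap to lamin B1 replicate 1. For MYF5, which had no lamin B1 host, the length and edge calls follow from its placement and repeat the counts of genes inside domains. For coverage of the 2 Mb on either side the count was also 4 of 6, against 34.2% of bins, with HBB and CFTR the exceptions. For this coverage, both LC3 lists lay below both lamin B1 lists in 0 of 6 genes, against 20.2% of bins. The shares for edge distance and flank coverage are not limited to bins covered by LC3, and such shares were not computed. Because all 6 genes lay in LC3 domains, these counts partly repeat that placement. With 5 loci the counts cannot be told apart from the shares. ALB and AFP are 1 locus and count 2 times in each of these numbers. No exact two-sided permutation test of 2 lists against 2 can give less than p = 0.333, and this was the lowest of the 18 tests of 3 measures in 6 genes (lowest adjusted p = 0.462 by the Benjamini-Hochberg method). The median difference over the 6 genes, LC3 minus lamin B1, was 1.89 Mb in domain length, 763 kb in edge distance and 16.2 percentage points in flank coverage. With AFP left out, so that each locus counted once, it was 0.91 Mb, 244 kb and 3.29 points.

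**Figure D4:**
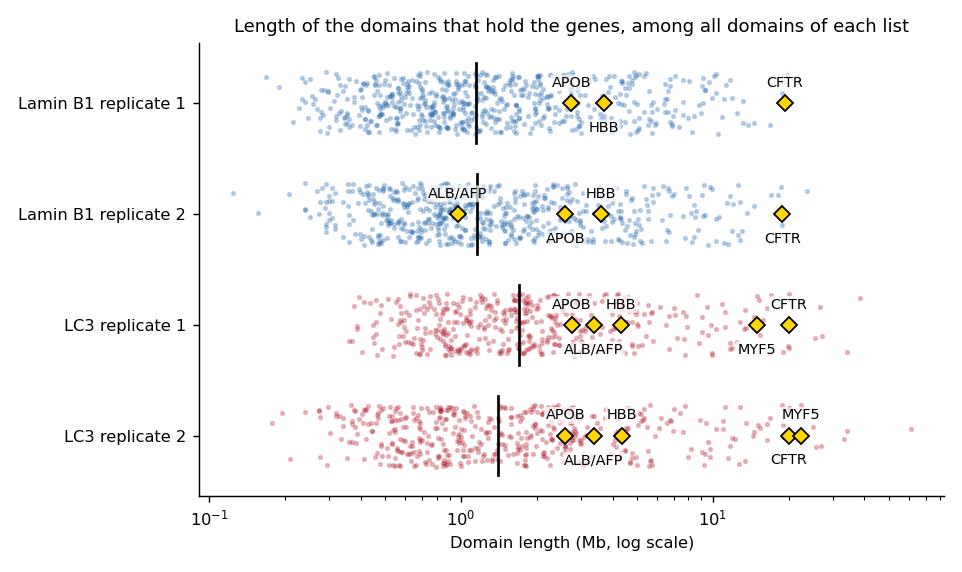
Length in Mb (log axis) of every domain in each list (dots, spread vertically for legibility), with the list's median (black line) and the domains that hold the 6 genes (diamonds). All host domains are longer than their list's median except the 0.972 Mb domain of ALB and AFP in lamin B1 replicate 2.

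Domains that held these genes were longer than the typical domain of their list, with 1 exception. Any covered position tends to lie in a long domain, since long domains hold more sequence, so the median weighted by length is the nearer background. It was 4.65 and 4.56 Mb in lamin B1 replicates 1 and 2 and 5.67 and 7.02 Mb in LC3 replicates 1 and 2, against unweighted medians of 1.15, 1.15, 1.70 and 1.41 Mb. CFTR in all 4 lists and MYF5 in the LC3 lists lay in domains above the weighted median, and the hosts of APOB, HBB, ALB and AFP were below it. The exception was the lamin B1 domain of ALB and AFP in replicate 2, in place 336 of 593 by length. The same genes lay in LC3 domains of 3.37 Mb in both replicates. MYF5 lay in LC3 domains in place 16 and 8. The largest gap between antibodies was at MYF5, where the LC3 hosts were among the longest of their lists and lamin B1 had no host.

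The chromosomes of these genes were also more or less rich in domains as a whole. Chromosome 4, with ALB and AFP, had 65.1% and 66.0% of its span in lamin B1 domains and 70.0% and 79.2% in LC3 domains. Chromosome 12, with MYF5, had 44.9% and 47.1% in lamin B1 domains and 45.2% and 49.3% in LC3 domains, the lowest of the 5 chromosomes for both. Chromosome 2, with APOB, had 52.1% and 52.3% in lamin B1 domains and 60.3% and 59.3% in LC3 domains. The values were 54.1%, 52.8%, 57.7% and 58.4% for chromosome 11, with HBB. For chromosome 7, with CFTR, they were 47.9%, 49.3%, 54.6% and 55.1%. Over the genome the LC3 lists held 49.4% and 52.3% of bins. All of these chromosomes except chromosome 12 were above that in both LC3 replicates. MYF5, held by LC3 and not by lamin B1, lay on the chromosome with the least of both among the 5. ALB and AFP, held by both LC3 lists and by lamin B1 replicate 2 alone, lay on the chromosome with the most of both. Whether these shares bear on the placement of the genes was not tested.

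The edges of the 3 domains covered in all lists give a measure of how exactly the lists placed them. Over these 6 edges the median distance was 81.5 kb between lamin B1 replicates and 20.5 kb between LC3 replicates. Between antibodies it was 19 kb for replicate 1 and 250.5 kb for replicate 2. These medians hide a wide spread. The right edges at HBB and CFTR differed by 628 and 691 kb in replicate 1 and by 781 and 636 kb in replicate 2. The left edge at CFTR differed by 23 kb in replicate 1 and 465 kb in replicate 2. All 4 lists fell within 100 kb of each other at 2 of the 6 edges, the left edges at APOB and HBB, and the widest spread was 781 kb, at the right edge at HBB.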

How the data were processed

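The 6 ChIP-seq samples fall into 3 groups, and the 4 precipitated ones each have a list of domains. Reads were handled with bcl2fastq 2.16.0.10, Bowtie2 and bedtools on GRCh37/hg19, per the submitters' processing notes. The deposited lists carry the name of EDD, a caller of broad domains. How it was set and how input entered it is not given in the sources used here. A deposited list holds chromosome, start and end of domains called in 1 replicate, in base pairs, with no score. Edges fall on multiples of 3, 4, 5 and 3 kb. With Python 3.11.15 and NumPy 2.4.6, each gene body was intersected with each list. Starts are printed 1-based. A gene was inside a list where its whole body lay in domains. Flank coverage is the percent of the gene and 2 Mb on either side in domains. Shares of 1 kb bins used the span from the first to the last domain of any list on a chromosome. Flank shares used only bins with a whole window, and edge shares only chromosomes with domains in all lists. Values were compared by exact permutation of 2 lists against 2. The interval code was tested on simulated data. The named genes are all 6 members. An annotation of the lists' build was not used here, so neighbours are named by their order in RefSeq GRCh38.p14 alone. Members, lists and motifs were chosen with earlier results of these data known, and the motifs after the sequences were seen. Alternatives changed the merging and minimum length of domains, their edges, the gene's extent, the flank and the lists used.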

Additional observations from a re-analysis of the deposited data

How the results depend on the processing

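Of 55 values under alternative settings, 47 stayed within 1.5 times the main count or within 1 combined SD of the lists, 8 moved and 0 changed direction. The 47 include values that are no check. The replicate-block values equal the main ones by construction, and leaving out domains under 500 kb returned the main value in every result. For flank coverage the combined SD was 10.5 points on a main value of 16.2, so a wide range counted as unmoved. The number of genes inside lamin B1 domains, and inside all lists, was 3 with both replicates and 5 where either replicate sufficed. When the lists were left out one by one, the lamin B1 count ranged from 3 to 5 and the count in all remaining lists from 3 to 5, the higher values without lamin B1 replicate 1, in which ALB and AFP are missing. The LC3 count was 6 under these settings. With 100 kb taken off domain ends, or 50 kb added to the genes, APOB dropped out of all 4 lists, and the lamin B1, LC3 and all-list counts were 2, 5 and 2. The first of these settings also took ALB, and not AFP, out of lamin B1 replicate 2. The single lamin B1 lists that gave the counts of 3 and 5 held 49.3% and 48.7% of bins (replicates 1 and 2). For the either-replicate, trimmed and widened settings, and for all-list counts with a list left out, no matching share of bins was computed. Without AFP the median differences fell to 0.91 Mb, 244 kb and 3.29 percentage points. Merging domains under 100 kb apart raised the edge distance to 1024 kb. With each list left out, they ranged from 1.76 to 2.03 Mb, 727.5 to 798.5 kb and 10.4 to 22.1 points. With the replicate block, that is, differences within same-numbered pairs, the medians were 1.89 Mb, 763 kb and 16.2 points, equal to the unpaired ones by construction, and an exact sign-flip permutation test of 2 pairs cannot go below p = 0.5. The unknown depth limits what absence from a list shows.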
